A study of Homo sapiens with 11 samples.

Results

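The genes described here encode the proteins of the mitochondrial ribosome, named MRPL for the large subunit and MRPS for the small subunit. They were taken as every row of the deposited count table whose symbol consists of MRPL or MRPS, a number and at most 1 letter from A to C. This gave 76 members among 19990 genes. By their known place in the ribosome, 50 belong to the large subunit and 25 to the small subunit. Both totals count MRPS30 and MRPS18A as large-subunit proteins, which they are despite their names. MRPS36 carries a ribosomal name but is a subunit of the 2-oxoglutarate dehydrogenase complex. MRPL45 and MRPS24 had no row under those symbols and were not analysed here.

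The study followed cardiomyocytes during long-term culture, a way of letting stem-cell-derived heart cells mature. The starting cells were the established human iPSC line WTC11, at passage 63. The cells were directed to the cardiac fate with CHIR99021, an inhibitor of GSK3, followed by IWP2, an inhibitor of Wnt secretion, and were then kept in RPMI1640 medium with B27 supplement and insulin. Poly(A) RNA was sequenced from 4 wells on Day 30, 3 wells on Day 60 and 4 wells on Day 113. The groups shared line, passage, small molecules and medium and differed in days of culture. Every well came from a single differentiation, so the p-values measure the spread between parallel wells, which may be technical. Each day was also its own collection, and the effects of the day and of the collection cannot be told apart.

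The mitochondrial ribosome translates the few mRNAs that mitochondrial DNA encodes, all of which specify subunits of the oxidative phosphorylation complexes. Its RNAs are transcribed inside the organelle, whereas all of its proteins are encoded in the nucleus, made in the cytosol and imported. Many of these proteins descend from bacterial ribosomal proteins, and others were added during the evolution of the mitochondrion. Heart muscle depends on oxidative phosphorylation for contraction.

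Short promoter stretches are shown first because promoter sequence was not used to choose the members. RefSeq promoters (GRCh38.p14, 250 bases before to 50 bases after the start) were matched for 67 of the 76 members. Motifs were searched on both strands for factors known to act at nuclear genes of mitochondrial proteins. The letters CCGGAAG, recognised by ETS factors such as GABPA, were present in 29 of the 67 member promoters (43.3%) and in 17% of 11816 promoters of protein-coding genes of the table. The letters AAGATGGCG, recognised by YY1, were present in 12 (17.9%) against 3.46%. The NRF1 consensus motif was present in 7 (10.4%) against 10.2%. At least 1 of these 3 motifs was found in 41 member promoters (61.2%) and in 27.3% of all promoters. The first 2 were also frequent in the related gene groups compared below: CCGGAAG was present in 31.7% of promoters of nuclear oxidative phosphorylation subunits and 32.3% of those of cytosolic ribosomal proteins, and AAGATGGCG in 11.7% and 8.06%. The other motifs searched were no more frequent in members than in all promoters, with TATAAA in 2.99% against 6.31%, the SP1 letters GGGCGG in 59.7% against 66.9%, the NFY letters CCAAT in 29.9% against 35.6%, the E-box CACGTG in 7.46% against 9.5% and the ERR letters TCAAGGTCA in 0% against 0.186%. A match is a description of the letters and not evidence of binding.

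The following 4 stretches carry the ETS letters, in capitals, within 60 bases before the start of 4 members. Each is shown with 10 bases on either side and on the strand of the gene. They lie at chr1:1407298-1407324, chr3:131502987-131503013 and chr6:42217867-42217893 on the minus strand and at chr22:19432524-19432550 on the plus strand.
MRPL20: aggggctgacCCGGAAGcgctcgtgac
MRPL3: gtaaaacgcaCCGGAAGtgggtccggc
MRPS10: cgctgtaaccCCGGAAGcaatcctgag
MRPL40: gggcgcacgcCCGGAAGcggcgagggt
Of the 67 promoters, 19 (28.4%) held the ETS letters in this 60-base window, against 7.96% of all promoters.

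The next 4 stretches carry the YY1 letters, again in capitals, and lie at chr6:42217834-42217862, chr15:88467362-88467390 and chr6:43687764-43687792 on the minus strand and at chr5:44808950-44808978 on the plus strand. They are shown because the match takes in the start codon.
MRPS10: cgggaccggcAAGATGGCGgcgcggacag
MRPL46: gggagaacgaAAGATGGCGgcgcccgtaa
MRPS30: atcgcgggcaAAGATGGCGgcggccaggt
MRPS18A: taggtttttgAAGATGGCGgccctcaagg
In 9 of the 12 member promoters with the YY1 letters (75%) they were on the strand of the gene and began 7 to 36 bases after the start. Of all 409 promoters with these letters, 265 (64.8%) had them on the strand of the gene after the start. In MRPL32, MRPL36 and MRPL52 they lay before the start. In 8 of these 9 genes, the ATG inside the match was an annotated start codon in GENCODE v29, and the exception was MRPL42. The 4 genes shown with the ETS letters were picked among those that rose by Day 113. Of all 19 members with these letters in the 60-base window, 8 were higher at Day 113 than at Day 30 in the test described below and 0 lower, or 5 and 2 without Day 113 replicate 2, a well that stood apart. MRPS12 and MRPS18A, described below, have the letters in this window and were not higher. Of the 29 members with the ETS letters anywhere in the promoter, 12 (41.4%) were higher and 0 lower, or 8 (27.6%) and 2 without that replicate. Among all genes 17.3% were higher and 17.2% lower, or 16.4% and 17.6% without it. Of the 12 members with the YY1 letters, 2 (16.7%) were higher and 0 lower, or 2 and 1. Of the 7 with the NRF1 motif, 0 passed in either direction, or 0 were higher and 1 lower. Of the 26 with none of the 3 motifs, 7 (26.9%) were higher and 1 lower, or 2 (7.69%) and 3. No difference between these counts was tested. Of the members called lower with every well, MRPL10 and MRPL2 had no matched promoter, and only MRPS25 had one. The counts of 0 lower with every well are limited by this. MRPL23, MRPL35 and MRPS28, all called higher, had no matched promoter either.

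The members also lay close to other promoters. In the GENCODE v29 annotation, 17 of 76 (22.4%) had a protein-coding neighbour on the opposite strand that starts within 1000 bp upstream of their own start. This held for 8.66% of the protein-coding genes of the table. A pair of members faced each other in this way. MRPL46, a protein of the central protuberance of the large subunit (chr15:88459476-88467419, minus strand), and MRPS11, of the small subunit (chr15:88467453-88480773, plus strand), start 34 bp apart. The RNA of MRPL46 was at 24.4 ± 2.60 CPM (counts-per-million units, SD, n = 4) on Day 30, 26.5 ± 2.86 (n = 3) on Day 60 and 25.96 ± 3.96 (n = 4) on Day 113. That of MRPS11 was at 32.9 ± 2.68, 28.7 ± 2.96 and 36.1 ± 2.97 CPM. Neither passed the test in any pair of days. MRPL47 faces NDUFB5 at 36 bp and MRPL36 faces NDUFS6 at 34 bp, both partners being subunits of respiratory complex I.

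The libraries held 24071375 to 34546715 counts each. The cardiomyocyte markers were abundant on every day: their summed level ran from 30295 to 41733 CPM on Day 30, 37250 to 42198 on Day 60 and 31979 to 35757 on Day 113, with 2 of 9 higher and 2 lower at Day 113 than at Day 30. Markers of other cells moved with the days. Between Day 30 and Day 113, 7 of 8 endoderm markers fell (summed level 450.1 to 1329 CPM on Day 30, 47.1 to 58.4 on Day 60, 26.8 to 47.7 on Day 113), with FOXA2 near 0 from Day 60, and 6 of 6 epithelial markers fell (735 to 1189, 432 to 570.0 and 68.3 to 208 CPM). All 7 endothelial markers rose (52.6 to 80.6, 36.6 to 60.5 and 192 to 785 CPM), as did 4 of 8 fibroblast markers, with 2 lower (3353 to 7707, 2070 to 3570 and 5431 to 13041 CPM). Of 4 smooth muscle markers 3 rose (489 to 736, 619 to 846 and 778 to 1214 CPM). All 7 proliferation markers fell after Day 60, and 3 were lower at Day 113 than at Day 30 (336 to 419.8, 537 to 768 and 208 to 384 CPM). Of these 3, AURKB lost its call without Day 113 replicate 2 (edgeR, described below, adjusted p = 0.032 with it and 0.061 without). The part of these cells in the results on the members was not tested. In bulk RNA, fewer cells of a type and less RNA per cell cannot be told apart. Among all genes 17.3% were higher and 17.2% lower at Day 113 than at Day 30. Day 113 replicate 2 stood apart from the other wells of its day for the members, and counts and calls are given with and without it where stated.

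All 76 members passed the filter on low counts, as did all 19990 genes. Per transcript length, so that genes can be compared, the members other than MRPS18B spanned a 16.9-fold range. Their median over the 11 wells was 32.8 CPM per kb of transcript, with a 75th percentile 2.13 times the 25th and a 90th percentile 4.49 times the 10th. The median of the large subunit was 33.3 CPM per kb and that of the small subunit 31.7. MRPL49 had the highest level, at 111 ± 12.3 CPM per kb (SD over 11 wells). MRPS6 followed at 87.8 ± 19.5, MRPL28 at 81.4 ± 16.4 and MRPL42 at 80.9 ± 9.82, and these 3 did not differ beyond their spread. At the lower end stood MRPS17 at 12.1 ± 2.31, MRPL50 at 8.31 ± 1.12 and MRPL22 at 6.60 ± 1.76 CPM per kb. The lengths are medians over annotated transcripts and not those used in these cells, and both MRPL50 and MRPL22 have long annotated transcripts (3332 and 3098 bp). Exons of 30 members (39.5%) overlap another gene of the table, 7 of them on the same strand. Those of MRPL49 overlap FAU and SYVN1 on the opposite strand, and those of MRPS6, MRPL28 and MRPS17 overlap SLC5A3, TMEM8A and NIPSNAP2 on the same strand, so the place of these 4 in the order is uncertain.

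**Figure D1:**
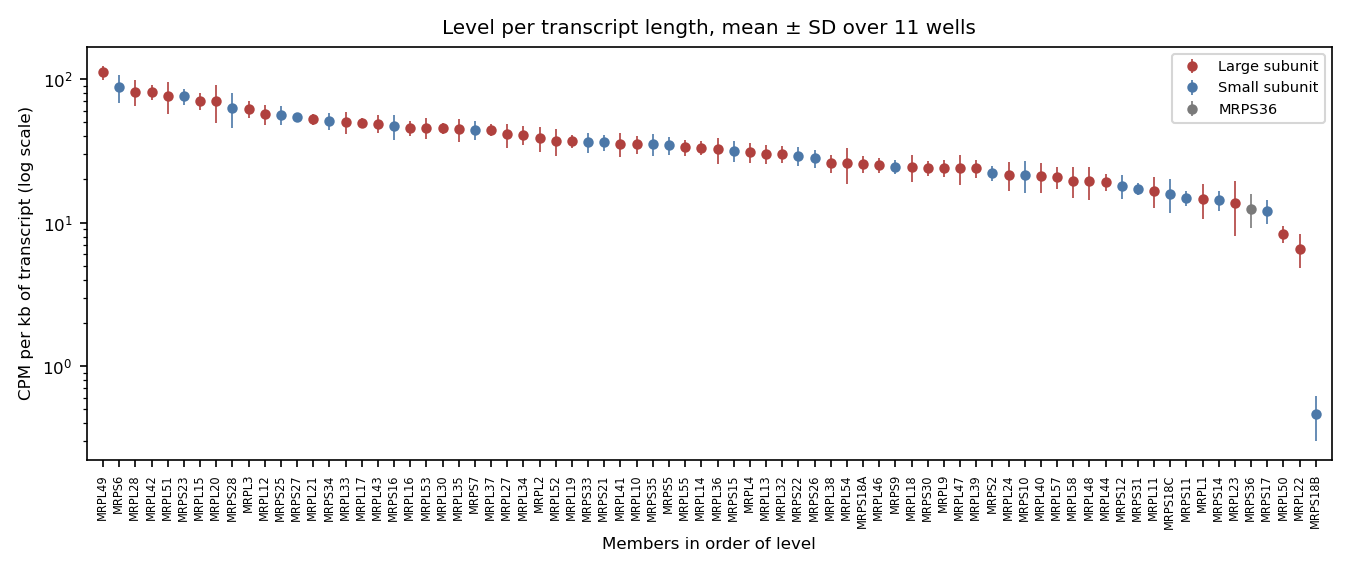
Level of each of the 76 members per kb of transcript (mean ± SD over 11 wells, log scale), in order of level and coloured by subunit. Members of both subunits are mixed along the order, and MRPS18B stands apart at the lower end with 0.461 CPM per kb.

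MRPS18B, at the lower end, is 1 of 3 paralogues related to a single bacterial protein. MRPS18B (chr6:30617709-30626395) was at 0.461 ± 0.159 CPM per kb, while MRPS18A was at 25.6 ± 3.42 and MRPS18C at 15.9 ± 4.27. Its reads were few in every well, from 0.4003 to 1.16 CPM. Of 59 protein-coding genes within 1 Mb of it, 5 (8.47%) had a row in the table, against 75.6% of all protein-coding genes, so its level is uncertain. Of the 3 paralogues, only MRPS18C changed between Day 30 and Day 113 at an adjusted p under 0.05. MRPS18C (chr4:83455932-83469735), a small-subunit protein, rose from 8.31 ± 1.23 CPM on Day 30 to 9.53 ± 1.91 on Day 60 and 13.8 ± 1.26 on Day 113, a log2 fold change of 0.73 ± 0.17 (SE) between Day 113 and Day 30 (edgeR quasi-likelihood test with Benjamini-Hochberg adjustment over 19990 genes, adjusted p = 0.0033). MRPS18A was at 19.4 ± 0.970, 21.0 ± 4.02 and 21.5 ± 3.18 CPM, with a log2 fold change of 0.15 ± 0.14 (edgeR adjusted p = 0.46). MRPS18B, at its low counts, had a log2 fold change of 0.60 ± 0.58 (edgeR adjusted p = 0.47). Differences between the paralogues were not tested. Exons of MRPS18C overlap ABRAXAS1 on the opposite strand, and without a stated strand setting reads of overlapping genes cannot be told apart.

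Between Day 30 and Day 60 the members moved little. A single member, MRPL35, rose and 0 fell at an adjusted p under 0.05 (edgeR, the threshold used for every call). This was 1.32% of members against 4.39% of all genes higher and 5.91% lower, or 10.3% in either direction. Without Day 113 replicate 2, which still enters the estimate of the spread, 2 rose and 0 fell (background 5.58% and 7.63%). Without adjustment, 8 members had a p under 0.05, and DESeq2 called 1 higher and 0 lower. The median log2 fold change of the members was 0.06, beside -0.01 for all genes. MRPL35 (chr2:86199355-86213794), a large-subunit protein of bacterial descent, was at 35.9, 34.1, 30.4 and 33.2 CPM in the Day 30 wells, 46.1, 41.5 and 52.6 in the Day 60 wells and 45.9, 48.7, 45.5 and 50.02 in the Day 113 wells. Every well of both later days lay above every Day 30 well. The log2 fold change was 0.49 ± 0.11 between Day 60 and Day 30 (adjusted p = 0.0082, edgeR) and 0.02 ± 0.11 between Day 113 and Day 60 (adjusted p = 0.90). The call between Day 60 and Day 30 held under every alternative at a threshold of 0.05.

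By Day 113 the members had moved further, most of those that passed the test upwards and all by less than 2-fold. Against Day 30, 23 of 76 rose (30.3%, against 17.3% of all genes) and 3 fell (3.95%, against 17.2%); in either direction 34.5% of all genes passed. The median log2 fold change of the members was 0.18, and that of all genes -0.02. In 18 of the 23, every Day 113 well lay above every Day 30 well. The same share among all genes that rose was not counted, so no comparison is drawn. The largest change was a log2 fold change of 0.89, for MRPL23. The 2 changed groups held members of both subunits: 15 of 50 large-subunit proteins rose and 2 fell, and 8 of 25 small-subunit proteins rose and 1 fell. With Day 113 replicate 2 left out, a well described next, these counts were 8 and 3 of the large subunit and 6 and 5 of the small subunit. MRPS36, which is not a ribosomal protein, was at 12.5 ± 2.39, 18.5 ± 4.47 and 15.0 ± 3.99 CPM on the 3 days and did not pass in any pair of days. By class, 17 of 45 bacterial homologues rose and 2 fell, and 6 of 30 mitochondria-specific proteins rose and 1 fell. MRPS18A and MRPS18B were counted as mitochondria-specific, although they are paralogues of the bacterial homologue MRPS18C. Without that replicate 11 and 6 of the bacterial homologues, and 3 (10%, background 16.4%) and 2 of the mitochondria-specific proteins, rose and fell.

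**Figure D2:**
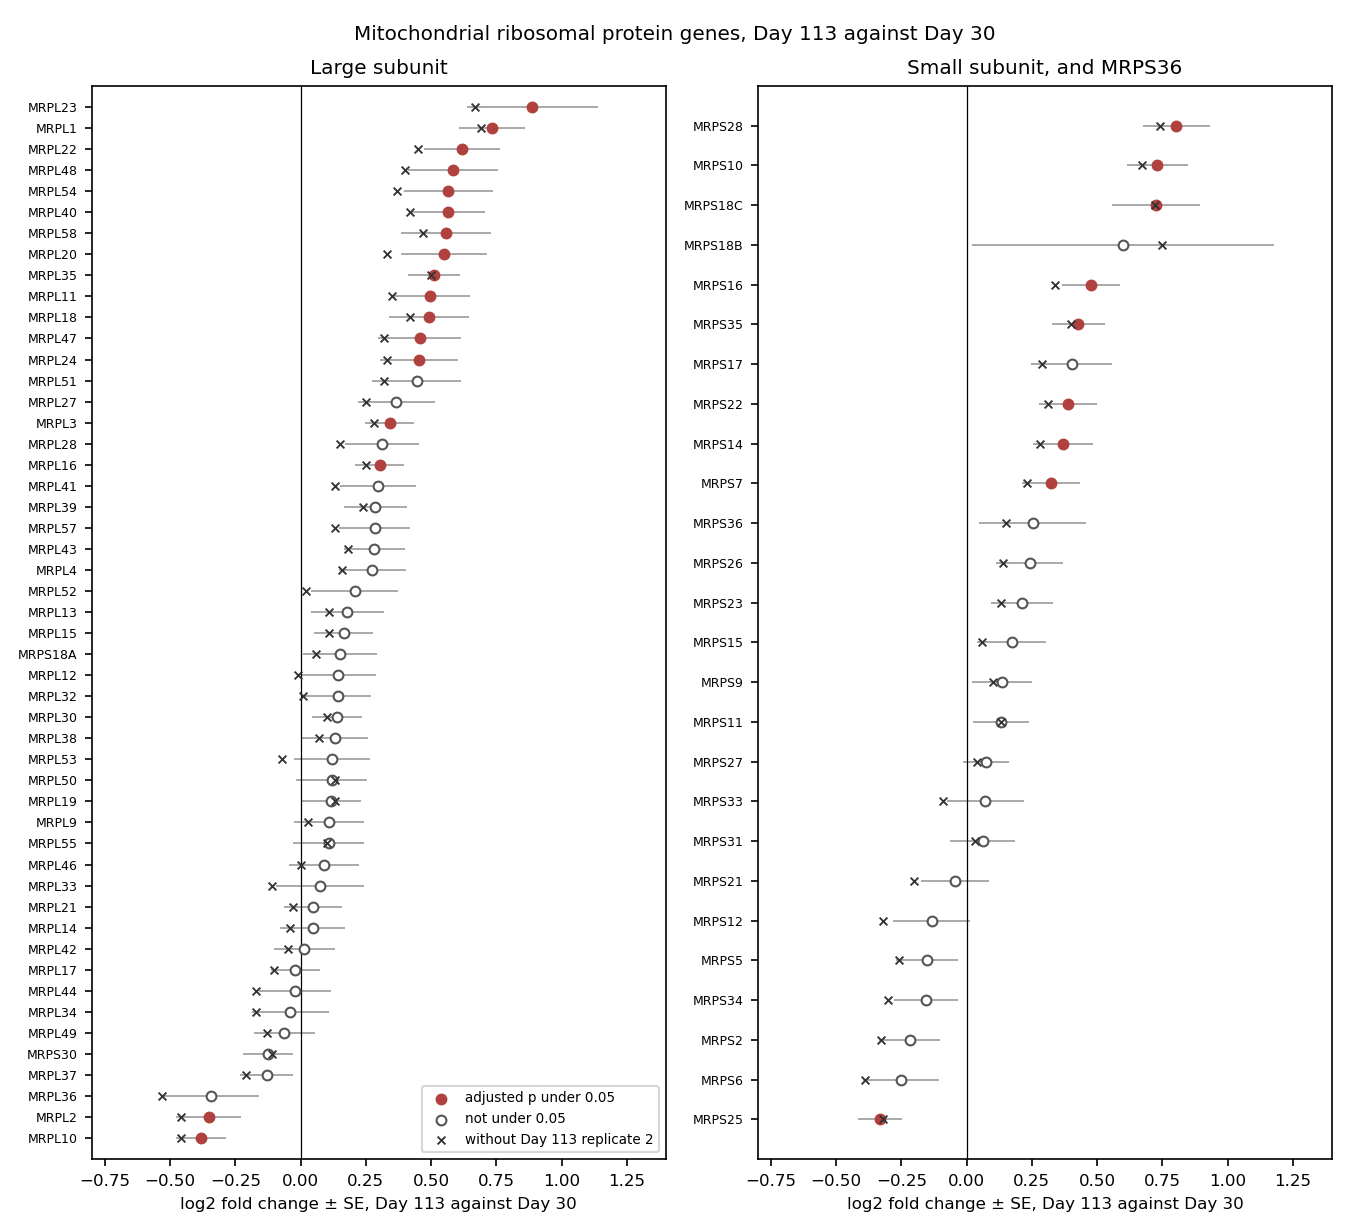
log2 fold change ± SE of every member between Day 113 and Day 30, by subunit and in order of size. Filled points have an adjusted p under 0.05 (23 higher, 3 lower), and crosses give the value without Day 113 replicate 2, which for most members lies to the left.

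Day 113 replicate 2 carried part of this count. It had the highest level of its day for 62 of 76 members (81.6%), against 34.6% of the 15554 genes with a mean of at least 1 CPM, and members made up 0.357% of its counts against 0.268%, 0.284% and 0.318% in the other wells of that day. Without it, 14 members were higher at Day 113 than at Day 30 (18.4%, background 16.4%) and 8 lower (10.5%, background 17.6%), and the median log2 fold change was 0.13. All 14, and 3 of the 8, were also called with every well included. In that well, the 4761 genes with the shortest transcripts stood at a median log2 difference of 0.18 from the other Day 113 wells, and the 4760 with the longest at -0.15. The 4761 genes with the highest GC content stood at 0.21 and the 4761 with the lowest at -0.11. The members are short, with a median transcript of 1033 bp against 1899 bp for protein-coding genes of the table. Their median GC content was close to that of these genes, at 50.5% against 50.2%. With offsets for length and GC in every library, 27 members were higher (35.5%, background 18.1%) and 3 lower (background 18.2%) at Day 113 than at Day 30. The same offsets gave 2 higher and 0 lower between Day 30 and Day 60 (background 5.4% and 6.14%), and 11 higher and 7 lower between Day 60 and Day 113 (background 13.2% and 13%). The part of length and GC in the values of this well was not tested beyond these offsets.

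**Figure D3:**
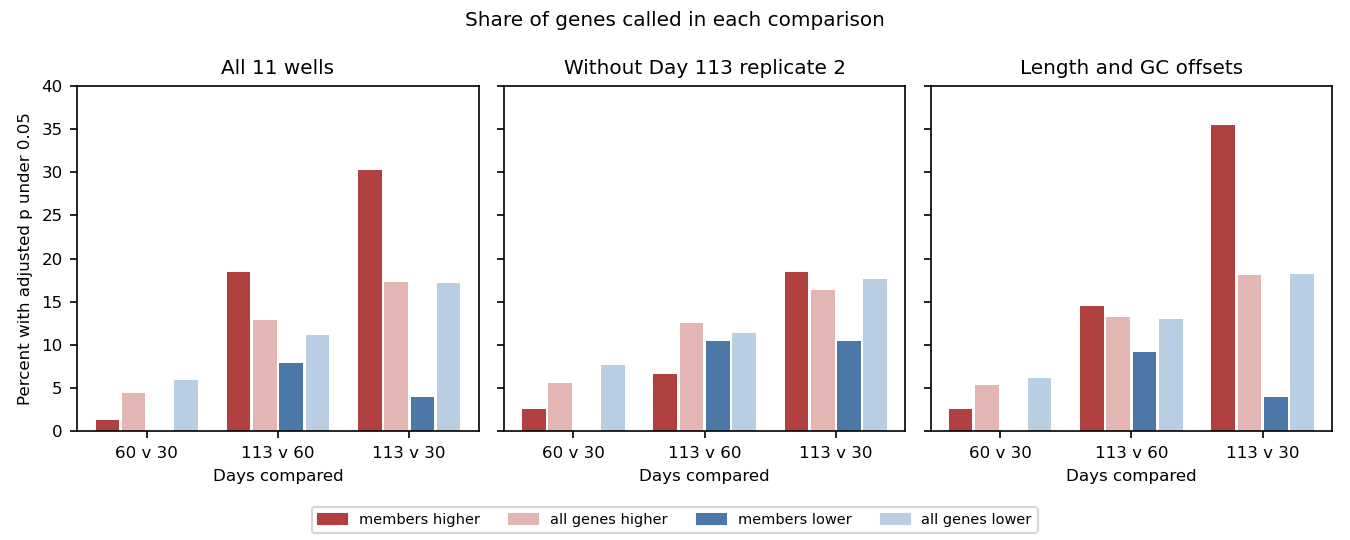
Share of members and of all genes with an adjusted p under 0.05, higher or lower, for each pair of days, in all 11 wells, without Day 113 replicate 2 and with length and GC offsets. Between Day 113 and Day 30, 30.3% of members were higher with all wells, 18.4% without that replicate and 35.5% with the offsets.

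Among the stalks and functional regions of the large subunit, the L1 stalk gave one of the clearest rises. MRPL1 (chr4:77862520-77952790) belongs to the mobile stalk beside the site from which spent tRNAs leave. It was at 12.3, 14.4, 14.7 and 13.8 CPM in the Day 30 wells, 14.3, 14.1 and 15.4 in the Day 60 wells and 21.2, 25.1, 20.4 and 25.2 in the Day 113 wells. Every Day 113 well lay above all earlier wells, and Day 30 and Day 60 overlapped. Day 113 stood above Day 30 by a log2 fold change of 0.73 ± 0.13 (adjusted p = 0.00032, edgeR) and 0.65 ± 0.14 against Day 60 (adjusted p = 0.0030). Both calls held under every alternative at a threshold of 0.05.

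The L12 stalk on the other side of the large subunit, which recruits translation factors, contained a member that fell. MRPL10 (chr17:47823272-47831534), the protein that anchors the stalk, was at 69.4, 64.5, 67.4 and 65.5 CPM on Day 30, 72.5, 64.0 and 61.0 on Day 60 and 48.8, 59.5, 48.9 and 47.5 on Day 113. All Day 113 wells lay below all earlier wells. Its log2 fold change was -0.38 ± 0.10 against Day 30 (adjusted p = 0.0055, edgeR) and -0.36 ± 0.10 against Day 60 (adjusted p = 0.017, and 0.085 without Day 60 replicate 1). MRPL12, the protein that MRPL10 holds, had a log2 fold change of 0.14 ± 0.14 between Day 113 and Day 30 (adjusted p = 0.48). Its groups overlapped. MRPL11 at the stalk base rose by 0.50 ± 0.15 on the log2 scale (adjusted p = 0.018), but not without Day 113 replicate 2 (0.35, adjusted p = 0.059).

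Proteins around the exit tunnel, through which the new chain leaves towards the inner membrane, included several that rose by Day 113. Of 5, 4 rose against Day 30 (MRPL23, MRPL22, MRPL24 and MRPL47) and 2 without Day 113 replicate 2 (MRPL23 and MRPL22), with a median log2 fold change of 0.46 and 0.33, where 17.3% and 16.4% of all genes rose. MRPL23 (chr11:1947278-1984522) was at 6.84, 7.37, 4.44 and 8.00 CPM on Day 30, 7.60, 8.59 and 5.27 on Day 60 and 8.05, 17.5, 10.95 and 12.9 on Day 113. The Day 113 wells were all above those of Day 30, the lowest by a small margin, and overlapped those of Day 60. The log2 fold change against Day 30 was 0.89 ± 0.25 (adjusted p = 0.012, edgeR), and 0.67 ± 0.24 without replicate 2 (adjusted p = 0.045). Against Day 60 it was 0.79 ± 0.27 (adjusted p = 0.047), a call that was lost in 9 of the 11 fits that left out 1 well, all but those without Day 30 replicate 3 or Day 113 replicate 1, with an adjusted p of 0.051 to 0.19.

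MRPL22 (chr5:154941070-154969411) reaches into the wall of the tunnel. Its wells were at 17.4, 18.0, 16.5 and 15.3 CPM on Day 30, 17.2, 19.0 and 18.1 on Day 60 and 21.2, 34.5, 24.2 and 23.4 on Day 113. All Day 113 wells lay above all earlier ones, with replicate 2 the highest. The log2 fold change against Day 30 was 0.62 ± 0.15 (adjusted p = 0.0039, edgeR) and 0.45 ± 0.12 without replicate 2 (adjusted p = 0.0086). MRPL24 (chr1:156737303-156741590) was at 16.99 ± 1.56, 16.3 ± 0.934 and 23.3 ± 4.88 CPM on the 3 days. Its log2 fold change against Day 30 was 0.45 ± 0.15 (adjusted p = 0.027), and 0.33 without Day 113 replicate 2 (adjusted p = 0.085). The call was also lost without Day 30 replicate 1, 3 or 4 or Day 113 replicate 3. Exons of MRPL23 overlap the antisense gene MRPL23-AS1, which was at 1.05 ± 0.715 CPM on Day 30 and 0.281 ± 0.244 on Day 113.

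The central protuberance is a lobe at the top of the large subunit that faces the small subunit, and it holds several mitochondria-specific proteins. Of its 8 members, 4 rose between Day 30 and Day 113 (MRPL48, MRPL40, MRPL58 and MRPL18), and the median log2 fold change was 0.43, where 17.3% of all genes rose. Without Day 113 replicate 2 only MRPL40 passed (12.5% of the 8, against 16.4% of all genes), at 0.42 ± 0.13 (adjusted p = 0.019, edgeR), and the median was 0.33. MRPL40 was at 21.6, 24.7, 25.7 and 24.3 CPM on Day 30 and 30.9, 46.0, 30.5 and 35.1 on Day 113, with no overlap. MRPL58, which also acts as a peptidyl-tRNA hydrolase that frees stalled chains, had a log2 fold change of 0.56 ± 0.17 (adjusted p = 0.021).

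Other large-subunit proteins moved in both directions. MRPL20 (chr1:1401908-1407313), of bacterial descent, was at 35.3, 41.2, 46.4 and 49.2 CPM on Day 30, 38.2, 50.3 and 40.9 on Day 60 and 51.9, 89.9, 54.0 and 56.4 on Day 113. The last day lay above the others in every well, and replicate 2 stood far above the rest. The log2 fold change against Day 30 was 0.55 ± 0.17 (adjusted p = 0.017, edgeR), and 0.33 ± 0.12 without replicate 2 (adjusted p = 0.048). Without Day 30 replicate 1 its adjusted p was 0.062. MRPL54, a mitochondria-specific protein, went from 12.2 ± 1.22 CPM on Day 30 to 18.1 ± 4.89 on Day 113, a log2 fold change of 0.57 ± 0.17 (adjusted p = 0.017) that became 0.37 without replicate 2 (adjusted p = 0.057) and 0.52 without Day 30 replicate 3 (adjusted p = 0.051).

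MRPL2 (chr6:43054029-43059806), a conserved protein close to the peptidyl transferase centre, fell after Day 60. It was at 41.6, 33.1, 32.0 and 37.4 CPM on Day 30, 45.6, 43.4 and 36.7 on Day 60 and 25.9, 34.1, 26.7 and 26.1 on Day 113. The Day 113 wells lay below all Day 60 wells, and replicate 2 alone overlapped the range of Day 30. MRPL2 changed by -0.57 ± 0.13 on the log2 scale against Day 60 (adjusted p = 0.0059, edgeR) and -0.35 ± 0.12 against Day 30 (adjusted p = 0.039). The second of these was lost in 6 of the 11 fits that left out 1 well, namely those without Day 30 replicate 1 or 4, Day 60 replicate 1 or Day 113 replicate 1, 3 or 4, with an adjusted p of 0.052 to 0.14. Exons of MRPL2 overlap KLC4 on the opposite strand. MRPS30 (chr5:44808925-44820428) was at 39.7 ± 0.771, 46.3 ± 4.75 and 36.4 ± 2.15 CPM, lower on Day 113 than on Day 60 by -0.34 ± 0.10 on the log2 scale (adjusted p = 0.022, and 0.058 to 0.086 without Day 60 replicate 1, Day 60 replicate 3 or Day 113 replicate 3).

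In the small subunit, which reads the mRNA, MRPS28 and MRPS10 rose. MRPS28, of bacterial descent, was at 28.1, 24.9, 19.0 and 25.7 CPM on Day 30, 26.9, 31.5 and 32.0 on Day 60 and 38.6, 48.4, 39.9 and 43.6 on Day 113. Every Day 113 well was above all earlier wells. Its log2 fold change was 0.80 ± 0.13 against Day 30 (adjusted p = 0.00017, edgeR) and 0.74 ± 0.13 without replicate 2 (adjusted p = 0.00047). MRPS10 (chr6:42206801-42217865) was at 32.8, 30.5, 39.0 and 38.4 CPM on Day 30, 43.8, 35.9 and 46.4 on Day 60 and 51.3, 65.5, 56.7 and 60.2 on Day 113, again with the last day above all others. Its log2 fold change against Day 30 was 0.73 ± 0.12 (adjusted p = 0.00018), and 0.67 ± 0.12 without replicate 2 (adjusted p = 0.00047).

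MRPS25, a mitochondria-specific protein of the small subunit (chr3:15042460-15065335), fell with the least spread of the 3 fallers. It was at 76.7, 74.0, 75.7 and 74.7 CPM on Day 30, 82.3, 89.8 and 83.3 on Day 60 and 56.5, 58.9, 57.5 and 66.3 on Day 113. The groups did not overlap in any pair of days. MRPS25 stood at a log2 fold change of -0.33 ± 0.08 against Day 30 (adjusted p = 0.0054, edgeR) and -0.51 ± 0.09 against Day 60 (adjusted p = 0.00075), and both calls held under every alternative at a threshold of 0.05. Exons of MRPS25 overlap NR2C2 on the opposite strand.

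**Figure D4:**
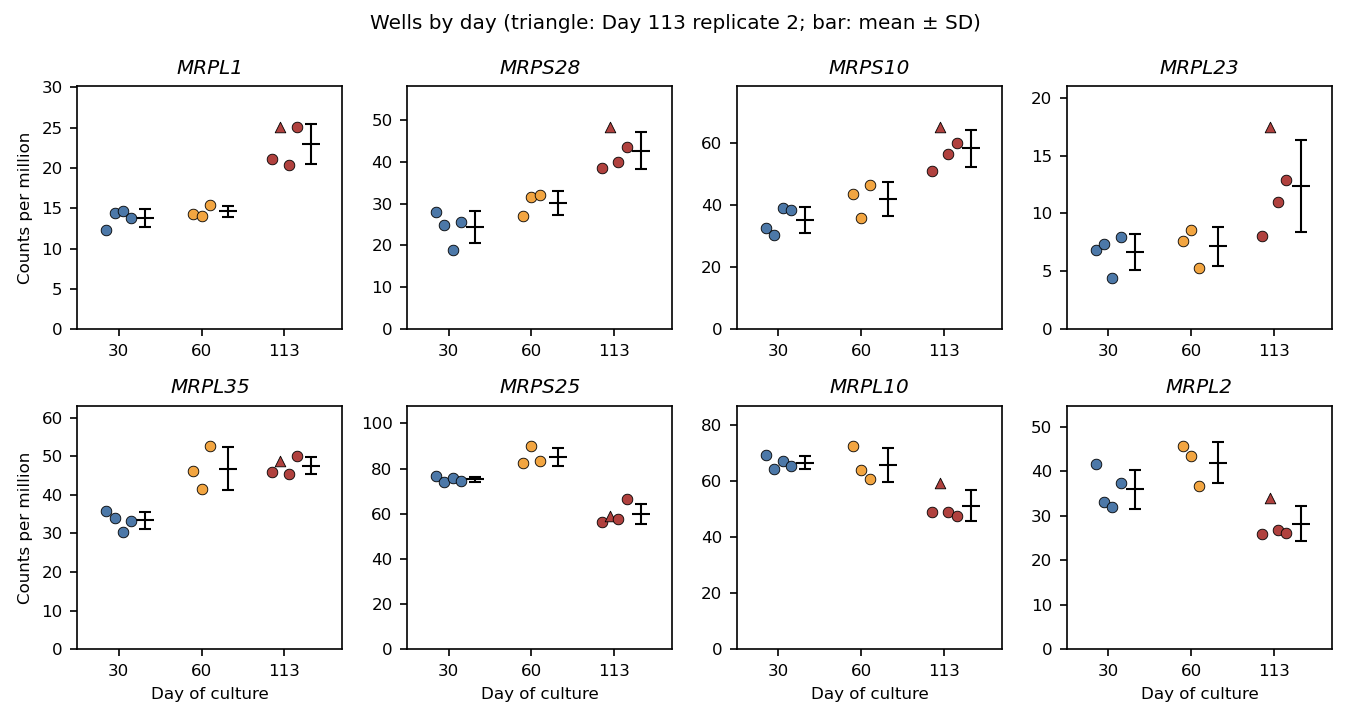
CPM in each well for 5 members that rose (MRPL1, MRPS28, MRPS10, MRPL23, MRPL35) and the 3 that fell (MRPS25, MRPL10, MRPL2) between Day 30 and Day 113, with the mean ± SD of each day. Triangles mark Day 113 replicate 2, which is the highest well of its day for MRPS28, MRPS10 and MRPL23 and also for the fallers MRPL10 and MRPL2.

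Between Day 60 and Day 113, 14 members rose (18.4%, against 12.9% of all genes) and 6 fell (7.89%, against 11.1%; 24% of all genes in either direction), with a median log2 fold change of 0.19 beside 0.00 for all genes. This comparison shares the Day 113 wells with the one above and the Day 60 wells with the first interval. The fallers were MRPL2, MRPS6, MRPS25, MRPS12, MRPL10 and MRPS30. MRPS12 (chr19:38930548-38933162), of the decoding centre, was at 21.9995, 21.4, 19.0 and 20.7 CPM on Day 30, 25.7, 26.2 and 27.6 on Day 60 and 17.1, 25.7, 15.5 and 17.4 on Day 113. Day 60 lay above Day 30 in all wells, and of the Day 113 wells only replicate 2 reached it. Its log2 fold change after Day 60 was -0.49 ± 0.16 (adjusted p = 0.034, edgeR), and its adjusted p was 0.066 to 0.095 without any 1 of the Day 60 wells or without Day 113 replicate 1, 3 or 4. Between Day 113 and Day 30 the log2 fold change of MRPS12 was -0.13 (adjusted p = 0.53), and -0.32 ± 0.11 without Day 113 replicate 2 (adjusted p = 0.042). MRPS6 (chr21:34073224-34143034) fell by 0.57 on the log2 scale (SE 0.16, adjusted p = 0.015, and 0.10 without Day 60 replicate 1), from 107 ± 18.3 to 72.5 ± 17.4 CPM. Against Day 30 its change was -0.25 (adjusted p = 0.21), and -0.39 ± 0.13 without Day 113 replicate 2 (adjusted p = 0.034). MRPS6 shares exons with SLC5A3 on the same strand, and its counts are uncertain for that reason.

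The counts after Day 60 depended on single wells. Without Day 113 replicate 2, 5 members rose (6.58%, background 12.5%) and 8 fell (10.5%, background 11.4%). Leaving out a Day 60 well gave 3 risers for replicate 1 and 5 for replicate 2 or 3. Risers among all genes also became fewer, from 2570 to 1751, 2158 and 1764 without Day 60 replicate 1, 2 or 3 in turn. Leaving out a Day 30 well gave 9 for replicate 1 and 8 for replicate 2 (all genes 2415 and 2350). Upper-quartile scaling of all wells gave 4 (all genes 2083). The number that fell was 2 when Day 60 replicate 1 was left out (all genes 1566, against 2220 with every well). MRPL1 rose, and MRPL2 and MRPS25 fell, in every fit at a threshold of 0.05.

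For MRPL2 and MRPS25 the change differed between the intervals. Taking the change from Day 60 to Day 113 minus that from Day 30 to Day 60, the log2 difference was -0.79 ± 0.23 for MRPL2 (adjusted p = 0.045, edgeR) and -0.69 ± 0.16 for MRPS25 (adjusted p = 0.012). These were 2 of 76 members (2.63%), against 9.34% of all genes, of which 4.97% had a positive and 4.38% a negative difference. Without Day 113 replicate 2 the count of members was 5 (all genes 2221 of 19817, against 1868 of 19990 with every well). Only 1 remained significant in each fit that left out Day 113 replicate 3, Day 60 replicate 1 or 2, or Day 30 replicate 2, 3 or 4. Taken over all 3 days together, 26 members changed (34.2%), against 37.1% of all genes.

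Summed over the 76 members, the level was 2699 ± 58.3 CPM on Day 30 (SD, n = 4), 2850 ± 68.1 on Day 60 (n = 3) and 3038 ± 421 on Day 113 (n = 4). The Day 113 wells were at 2677, 3620, 2790 and 3067 CPM, so their lowest fell within the range of Day 30. Without replicate 2 the Day 113 mean was 2845 ± 201 CPM. The spread of single members widened in the same way: their median coefficient of variation between wells was 7.89% on Day 30, 10.5% on Day 60 and 16.8% on Day 113, or 10.9% without replicate 2. Over the 15554 genes with a mean of at least 1 CPM it was 11.4%, 13.2% and 16.9%, or 12.8% without replicate 2.

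**Figure D5:**
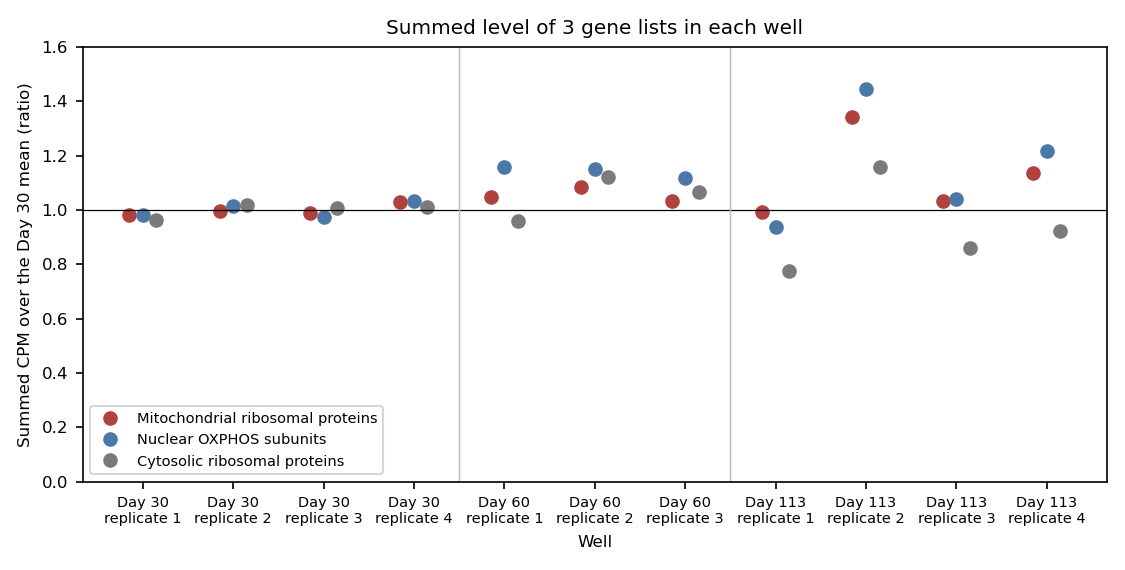
Summed CPM of the members, of nuclear OXPHOS subunits and of cytosolic ribosomal proteins in each well, over the Day 30 mean of each list. Day 113 replicate 2 is the highest well for all 3 lists (1.34, 1.45 and 1.16), and the other Day 113 wells of the members lie between 0.992 and 1.14.

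Nuclear subunits of oxidative phosphorylation, the complexes that the mitochondrial ribosome helps to build, were compared with the members. Of 76, 26 rose and 1 fell between Day 30 and Day 113 (all genes 17.3% and 17.2%), with a median log2 fold change of 0.30. Without Day 113 replicate 2, 20 rose and 4 fell (all genes 16.4% and 17.6%). Between Day 30 and Day 60 their median was 0.21. In that interval 4 rose and 0 fell (all genes 4.39% and 5.91%), or 11 rose without Day 113 replicate 2 (all genes 5.58%). Among those that rose by Day 113, the complex I subunit NDUFB2 went from 48.7 ± 5.89 to 102 ± 28.2 CPM, and the ATP synthase subunit ATP5F1E, at low counts, from 0.721 ± 0.210 to 2.00 ± 1.10. The second of these calls was lost without Day 113 replicate 2 (adjusted p = 0.13, edgeR). SDHA, of complex II, fell from 319 ± 31.7 to 224 ± 25.1 CPM. Of 77 cytosolic ribosomal proteins, 0 rose and 7 fell by Day 113 (all genes 17.3% and 17.2%), with a median of -0.08. Without Day 113 replicate 2, 24 fell (all genes 17.6%). RPS19 and RPS29 were the lowest, with log2 fold changes of -0.60 ± 0.13 and -0.50 ± 0.14 (adjusted p = 0.0026 and 0.011, edgeR). Differences between these lists and the members were not tested.

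The rest of the translation machinery of the mitochondrion was followed through lists that do not depend on the naming rule. Of the 5 mitoribosome proteins with other names, 3 rose between Day 30 and Day 113. Among all genes 17.3% rose and 17.2% fell, or 16.4% and 17.6% without Day 113 replicate 2. GADD45GIP1 went from 60.7 ± 3.46 to 82.8 ± 12.7 CPM (log2 fold change 0.45 ± 0.11, adjusted p = 0.0043, edgeR), PTCD3 from 106 ± 6.51 to 133 ± 9.52 (0.33 ± 0.09, adjusted p = 0.0079) and CHCHD1 from 18.4 ± 1.43 to 27.7 ± 9.81 (0.59 ± 0.20, adjusted p = 0.031). DAP3 (-0.18 ± 0.09, adjusted p = 0.15) and AURKAIP1 (0.38 ± 0.20, adjusted p = 0.16) did not pass. Without Day 113 replicate 2, 2 of the 5 rose and 1 fell: CHCHD1 lost its call (0.34 ± 0.16, adjusted p = 0.13), and DAP3 passed as lower (-0.27 ± 0.07, adjusted p = 0.0092).

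The RNA that the proteins assemble with followed another course. The large rRNA, RNR2, was at 20149 ± 643 CPM on Day 30, 31192 ± 4599 on Day 60 and 20451 ± 1923 on Day 113. It rose by 0.63 ± 0.12 on the log2 scale by Day 60 (adjusted p = 0.0030, edgeR) and fell by 0.61 afterwards (SE 0.12, adjusted p = 0.0017). The small rRNA, RNR1, rose by 0.56 ± 0.16 by Day 60 (adjusted p = 0.033), and its change after Day 60 was -0.31 ± 0.16 (adjusted p = 0.18). These RNAs carry short tails at most, and their share in poly(A) libraries depends on the selection.

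Factors that assemble or serve the ribosome changed in both directions. Of 30 assembly factors, 7 rose and 4 fell between Day 30 and Day 113 (all genes 17.3% and 17.2%). MTERF3 (0.59 ± 0.14, adjusted p = 0.0043, edgeR), METTL17 (0.53 ± 0.12, adjusted p = 0.0027) and MTG1 (0.50 ± 0.14, adjusted p = 0.011) rose the most. The GTPase NOA1 (-0.84 ± 0.12, adjusted p = 4.2e-05), the rRNA methyltransferase NSUN4 (-0.73 ± 0.13, adjusted p = 0.00037) and the pseudouridine synthase RPUSD4 (-0.63 ± 0.12, adjusted p = 0.00079) fell the most. With Day 113 replicate 2 left out, 6 rose and 4 fell (all genes 16.4% and 17.6%), and the 6 genes named here kept their calls.

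Of 17 translation factors and related proteins, 4 rose and 1 fell. Among all genes 17.3% rose and 17.2% fell, or 16.4% and 17.6% without Day 113 replicate 2. The initiation factor MTIF3 went from 47.1 ± 2.00 CPM on Day 30 to 84.1 ± 10.8 on Day 113 (log2 fold change 0.84 ± 0.10, adjusted p = 1.1e-05, edgeR), and the elongation factor GFM1 from 71.3 ± 5.16 to 106 ± 6.91 (0.57 ± 0.09, adjusted p = 0.00012). SLIRP, which stabilises mitochondrial mRNAs, also rose (0.58 ± 0.19, adjusted p = 0.023), but not without Day 113 replicate 2 (0.40 ± 0.17, adjusted p = 0.083), when 3 factors rose and 1 fell. OXA1L, which inserts the new chains into the inner membrane, fell from 171 ± 4.48 to 104 ± 7.56 CPM (-0.72 ± 0.08, adjusted p = 5.8e-06).

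Of 19 mitochondrial tRNA synthetases and related enzymes, 5 rose, led by GATB, HARS2 and FARS2 (log2 fold changes of 0.70, 0.68 and 0.61), and 5 fell, led by WARS2, PARS2 and MARS2 (-0.81, -0.77 and -0.70). Of 21 genes that copy, transcribe or process mitochondrial DNA and RNA, 7 rose, among them TRMT10C, TEFM and FASTKD5 (0.71, 0.63 and 0.61), and 1 fell, the helicase TWNK (-0.61). Leaving out Day 113 replicate 2 made these counts 4 and 5, and 4 and 3 (all genes 17.3% and 17.2% with it, 16.4% and 17.6% without). FARS2, TEFM and FASTKD5 then lost their calls (adjusted p = 0.053, 0.061 and 0.054, edgeR).

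Among 12 regulators of nuclear genes for mitochondrial proteins, 1 rose and 3 fell between Day 30 and Day 113 (all genes 17.3% and 17.2%). Without Day 113 replicate 2 the counts were 1 and 4 (all genes 16.4% and 17.6%). PPARGC1A, a coactivator of nuclear genes for mitochondrial proteins, went from 83.0 ± 17.5 to 47.8 ± 15.3 CPM (log2 fold change -0.80 ± 0.20, adjusted p = 0.0058, edgeR). ESRRG, an oestrogen-related receptor, went from 78.9 ± 5.30 to 46.3 ± 4.84 CPM (-0.77 ± 0.12, adjusted p = 0.00014). SP1 fell too (-0.37 ± 0.10, adjusted p = 0.011), and MYC rose from 2.96 ± 0.889 to 6.93 ± 2.29 CPM (1.23 ± 0.40, adjusted p = 0.027). Of the 3 factors whose motifs opened the account of the promoters, 0 passed: GABPA had a log2 fold change of 0.07 ± 0.14 (adjusted p = 0.76), YY1 of -0.06 ± 0.09 (adjusted p = 0.64) and NRF1 of 0.01 ± 0.12 (adjusted p = 0.95).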

How the data were processed

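The authors deposited whole-number read counts per gene symbol and a second table in TPM. Per the submitters' processing notes, reads were handled with STAR 2.5.3a and featureCounts 2.0.3 on hg38. The annotation and the strand setting are not given in the sources used here. In the deposited TPM table the length implied for a member differed by a median of 65.4-fold between libraries, so no TPM value is reported. Library totals were 24071375 to 34546715 counts.

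Counts were tested with edgeR 4.0.16 (glmQLFit and glmQLFTest, TMM scaling, filterByExpr with a minimum count of 10, R 4.3.3), with day as the only factor and all 11 wells in 1 fit, and with Benjamini-Hochberg adjustment over all 19990 genes. Every adjusted p comes from this test unless another tool is named. CPM used TMM effective library sizes. Levels per length used median protein-coding transcript lengths of GENCODE v29 (GRCh38). Symbols were matched to gene models for positions, and overlaps were taken from exons. The fitting was tested on simulated data.

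Wells of a day differed by more than sampling noise (chi-square per degree of freedom 11.7 to 88.7), so none was taken as a repeat of another. Members and lists were chosen with earlier results of these data known. By rule, individual members were named for the 6 highest and 6 lowest called changes in each pair of days, the 4 most and least abundant per length, calls that differ between intervals, the MRPS18 paralogues and levels under 1 CPM. MRPL3, MRPL11, MRPL12, MRPL18, MRPL32, MRPL36, MRPL40, MRPL46, MRPL47, MRPL48, MRPL52, MRPL58, MRPS11 and MRPS36 were named after their values were seen. Alternatives were other scalings, filters and tools (DESeq2 1.42.0, limma-voom 3.58.1), robust dispersions, a replicate block, leaving out each well, a threshold of 0.01 and, added after the data were seen, length and GC offsets.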

Additional observations from a re-analysis of the deposited data

Results flagged for a closer look

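In groups of 4 wells, the gap between the highest or lowest well and its neighbour was compared with the range of the group, a check that chance meets in about 1 of 20 groups. For 3 named members Day 113 replicate 2 lay apart from the other wells of its day: MRPL20 at 89.9 CPM, MRPL10 at 59.5 CPM and MRPL2 at 34.1 CPM. In each it was the highest well. For MRPL10 and MRPL2, which were lower on Day 113, it lay nearer to the earlier days than the other wells did.

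For 2 members the change after Day 60 differed from the change before it by a test of that difference (edgeR quasi-likelihood, adjusted p under 0.05 over all genes). The log2 difference was -0.69 for MRPS25 (adjusted p = 0.012) and -0.79 for MRPL2 (adjusted p = 0.045).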

How the results depend on the processing

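The count of members higher on Day 60 than on Day 30 was 1, and 1 to 2 when a well was left out, 3 with the replicate block and 2 with length and GC offsets. The 14 higher on Day 113 than on Day 60 became 4 with upper-quartile scaling, 1 at a threshold of 0.01 and 3 to 18 when a well was left out. The 6 lower became 2 at 0.01 and 2 to 8. For Day 113 against Day 30, the 23 higher became 10 at 0.01 and 14 to 27, and the 3 lower 2 to 8. The 26 that changed over the 3 days became 11 at 0.01 and 20 to 30. The 2 whose change differed between intervals became 4 with DESeq2 size factors, a mean CPM of at least 1, limma-voom or the replicate block, 5 with upper-quartile scaling, DESeq2 or length and GC offsets, 0 at 0.01 and 1 to 5 when a well was left out. Counts over all genes moved between these fits as well, and the cause of these differences was not tested. The fit without the low-count filter repeated the main fit, since all 19990 genes passed that filter. The wells were not treated as paired by number, since r of the deviations of same-numbered wells was over 0.1 in 6 of 10 pairs and not in all. All 10 were positive (0.0262 to 0.197), against 8 of 30 pairs with different numbers (-0.148 to 0.164), a hint of pairing from the data and not from the design. The block gave 25 higher and 3 lower for Day 113 against Day 30. Of 29 called values of named members, 13 kept their call under every alternative and 0 turned direction.

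Direction turned in 46 of 1377 values of named members, all of them uncalled and at most 0.31 in size. For Day 60 against Day 30 the values were 0.02 for MRPL10 and 0.01 for MRPL49 with upper-quartile scaling, -0.00 for MRPL20 with limma-voom, and 0.03 for MRPL10, 0.03 for MRPL28, 0.02 for MRPL49 and -0.06 for MRPL50 with length and GC offsets. With a well left out the ranges were -0.07 to 0.06 (MRPL10), -0.12 to 0.11 (MRPL20), -0.05 to 0.30 (MRPL23), -0.11 to 0.01 (MRPL24), -0.15 to 0.06 (MRPL28), -0.14 to 0.05 (MRPL49), -0.01 to 0.08 (MRPL50 and MRPL54), -0.01 to 0.27 (MRPS18A) and -0.02 to 0.60 (MRPS18B). For Day 113 against Day 60 they were -0.04 for MRPL35 and -0.03 for MRPS18A with upper-quartile scaling, -0.05 for both with length and GC offsets and -0.02 for MRPL50 with the replicate block, with left-out ranges of -0.05 to 0.11 (MRPL35), -0.20 to 0.00 (MRPL42), -0.11 to 0.08 (MRPL49), -0.06 to 0.18 (MRPL50) and -0.10 to 0.18 (MRPS18A). For Day 113 against Day 30, MRPL42 was at -0.01 with upper-quartile scaling and -0.14 with length and GC offsets, with left-out ranges of -0.05 to 0.08 (MRPL42), -0.13 to 0.02 (MRPL49) and -0.03 to 0.22 (MRPL50).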

Other observations

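Rows with related names fell outside the rule that chose the members. A row named MRPL45_1 was at 15.4 ± 2.01 CPM on Day 30 (SD, n = 4), 13.7 ± 1.12 on Day 60 (n = 3) and 13.0 ± 2.65 on Day 113 (n = 4). What the suffix marks is not given in the sources used here, and the row was not counted as MRPL45. MRPS31P5, named as a pseudogene of MRPS31, was at 23.0 ± 3.57, 21.4 ± 2.64 and 12.9 ± 3.10 CPM. MRPL20-AS1, named as antisense to MRPL20, was at 10.3 ± 1.35, 9.69 ± 1.69 and 12.3 ± 2.48 CPM. No comparison was made for these rows.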
